A study of Mus musculus with 4 samples.

Results

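A set of 10 genes of fatty acid uptake and lipid droplets was described in microglia, the resident macrophages of the brain: Lpl, Fabp5, Fabp3, Cd36, Plin2, Plin3, Acsl1, G0s2, Pnpla2 and Hilpda. Its members were chosen by symbol, and all 10 were found among the 12800 genes of the deposited table, which holds 3023 cells. Transcripts were counted in single cells of 4 libraries with a droplet assay in which each captured molecule carries a unique molecular identifier (UMI) at its 3′ end. The libraries were of Trem2 -/- (knockout, KO), Trem2 +/- (heterozygous, Het) and Trem2 +/+ (wild type, WT) mice after 12 weeks on a diet with 0.2% cuprizone, a toxicant that removes the myelin sheath by killing the cells that make it, and of Trem2 +/+ mice after 12 weeks on control diet. All mice were males of 12-14 months. Each library pooled sorted live CD11b+ CD45low cells from 2 hemibrains of different animals, so each group is 1 library and the animals within it cannot be separated. The labels do not give the Trem2 allele, and no Trem2 -/- or Trem2 +/- library on control diet was analysed here.

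Microglia that take up myelin debris receive a large load of cholesterol and fatty acids. Lipoprotein lipase and the scavenger receptor CD36 bring fatty acids to and across the cell surface, fatty acid binding proteins carry them in the cytosol, and acyl-CoA synthetases activate them. Surplus fatty acids are stored as triacylglycerol in lipid droplets, which perilipins coat and which lipases, held in check by inhibitor proteins, break down. TREM2, a lipid-sensing receptor of microglia, is known to be needed for the shift to a disease-associated state in which Lpl is a standard marker.

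The uptake genes were Lpl (ENSMUSG00000015568, chr8:68880491-68907448, plus strand), a secreted lipase that frees fatty acids from lipoproteins, and Cd36 (ENSMUSG00000002944, chr5:17781690-17888801, minus strand), a receptor for long-chain fatty acids and oxidized lipids. The cytosolic carriers were Fabp5 (ENSMUSG00000027533, chr3:10012548-10016607, plus strand), often called the epidermal form, and Fabp3 (ENSMUSG00000028773, chr4:130308595-130315463, plus strand), the heart form. Acsl1 (ENSMUSG00000018796, chr8:46471037-46536051, plus strand) encodes a long-chain acyl-CoA synthetase. Of the droplet coat proteins there were Plin2 (ENSMUSG00000028494, chr4:86648386-86670060, minus strand), which is found on droplets of most cell types, and Plin3 (ENSMUSG00000024197, chr17:56277476-56292873, minus strand), which moves to droplets from the cytosol. Pnpla2 (ENSMUSG00000025509, chr7:141455198-141460743, plus strand) encodes adipose triglyceride lipase, the enzyme that starts the breakdown of stored triacylglycerol. G0s2 (ENSMUSG00000009633, chr1:193272161-193273217, minus strand) and Hilpda (ENSMUSG00000043421, chr6:29272488-29275446, plus strand) encode small proteins that inhibit that lipase. Positions are those of the gene bodies on mouse build GRCm38 (mm10).

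Promoter windows of 250 bases before the annotated start were found for 8 of the 10 genes in a RefSeq table of build GRCm38.p6. The windows of Cd36, Plin2 and Fabp3 are printed because these are the genes with a window whose level was at least 1.5-fold higher on cuprizone than on control diet in WT cells. The starts are those of RefSeq, and for Cd36 and Fabp3 they lie inside the gene bodies given above. They are given 5′ to 3′ on the strand of the gene, and capitals mark the letters CCAAT and, as read on the other strand, the site AGGTCA.
Cd36 (chr5:17835897-17836146, minus strand): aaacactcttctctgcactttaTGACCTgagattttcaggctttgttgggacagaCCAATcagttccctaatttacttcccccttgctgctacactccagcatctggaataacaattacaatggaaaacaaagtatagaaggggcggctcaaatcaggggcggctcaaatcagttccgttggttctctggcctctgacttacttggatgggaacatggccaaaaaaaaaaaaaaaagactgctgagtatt
Plin2 (chr4:86670060-86670309, minus strand): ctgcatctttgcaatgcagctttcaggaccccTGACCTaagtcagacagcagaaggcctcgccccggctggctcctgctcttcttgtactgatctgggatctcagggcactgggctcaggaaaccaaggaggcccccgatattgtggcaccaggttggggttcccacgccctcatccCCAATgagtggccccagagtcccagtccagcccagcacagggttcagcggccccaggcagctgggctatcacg
Fabp3 (chr4:130308488-130308737, plus strand): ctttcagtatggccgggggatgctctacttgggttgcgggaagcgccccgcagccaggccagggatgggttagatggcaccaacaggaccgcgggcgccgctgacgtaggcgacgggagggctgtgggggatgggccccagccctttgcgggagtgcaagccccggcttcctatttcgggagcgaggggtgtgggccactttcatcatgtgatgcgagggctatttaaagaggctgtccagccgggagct
Both the Cd36 and the Plin2 window held AGGTCA, the single site of response elements for nuclear receptors such as the fatty acid sensing PPARs, 228 and 218 bases before the start. They also held CCAAT, at 195 and 73 bases before the start, and the Fabp3 window held neither. In all 6 motifs were searched on both strands: the site AGGTCA, its direct repeat with 1 base between (DR1), the E-box CACGTG, the core of hypoxia response elements ACGTG, which lies within the E-box, the box named for its letters CCAAT and the TATA box TATAAA. Among 32851 windows of the same length in that table, 14% held the AGGTCA site, 0.0335% DR1, 6.02% the E-box, 16.6% the hypoxia core, 33.8% the CCAAT box and 12.4% the TATA box. Of the other members, Plin3 and Acsl1 had a CCAAT box and Hilpda a hypoxia core 43 bases before the start, and no member window held DR1, the E-box or the TATA box. A match describes letters only.

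Levels were summed over 6 of the authors' 8 clusters (01, 02, 04, 05, 06 and 08), leaving 753 KO, 695 Het, 663 WT cuprizone and 479 WT control cells with between 3638474 and 6552603 UMIs in all and a median of 4717 to 6849 UMIs per cell. Cluster 03 was led by Elane, Prss34, Enpp2, Cldn5 and Ttr, genes of granulocytes, vessels and choroid plexus, and cluster 07 by class II genes and Cd209a, so both were kept apart. All 13 microglia markers had UMIs in each library, with summed levels of 51998 to 60164 CPM, the UMIs of a gene per 1000000 UMIs of the cells summed (those of a library's 6 clusters, or of 1 cluster where a cluster is named). Trem2 itself was at 520 CPM in the library labelled Trem2 -/-, 1763 CPM in the Trem2 +/- library, 2939 CPM in the WT cuprizone library and 3132 CPM in the WT control library. Of 3015 distinct barcodes 8 occurred in 2 libraries. CPM are compared between libraries, gene by gene.

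With 1 library in each group no test between groups could be made, and no p-value is given. A level carries an exact Poisson 95% interval, a ratio of 2 levels an exact conditional binomial (Clopper-Pearson) 95% interval, and a percentage of cells an exact binomial one, and these cover counting error only. A gene was called higher or lower where the ratio was at least 1.5-fold, the interval excluded 1 and both libraries together held at least 50 UMIs. These calls compare the libraries, not the conditions. Of the 4 comparisons, 3 use the WT cuprizone library, and both comparisons against control diet use the WT control library, so they are not independent of each other.

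In the KO library on cuprizone the uptake genes Lpl and Cd36 and the carrier gene Fabp5 were lower than in the WT library on cuprizone, while Plin3, Pnpla2 and Hilpda lay near the WT level. Lpl had 31.6 CPM (206 UMIs) in KO cells, against 349 CPM (2287 UMIs) in Het cells, 320 CPM (1977 UMIs) in WT cells on cuprizone and 38.2 CPM (139 UMIs) in WT cells on control diet. The KO library thus stood beside the control-diet library and the Het library beside WT on cuprizone. In such a summed level fewer cells with the gene and fewer UMIs per cell cannot be told apart, and shares of cells are given further on. Lpl was 10.1-fold lower in KO than in WT cells on cuprizone (8.77 to 11.7).

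Fabp5 had 33.8 CPM in KO, 109 CPM in Het, 80.8 CPM in WT cuprizone and 10.2 CPM in WT control cells. Unlike Lpl, it stood in the KO library between both WT libraries. It was 2.39-fold lower in KO than in WT cells on cuprizone (2.04 to 2.82), and 3.32-fold higher in KO cuprizone than in WT control cells (2.34 to 4.84). The first direction turned when the clusters were given equal weight (log2 0.26). That weighting counts the 13 KO cells of cluster 04 as much as any other cluster, and 1 of them held 24 of their 42 Fabp5 UMIs. Cd36 was sparse, with 3.84 CPM (25 UMIs) in KO, 9.46 CPM (62 UMIs) in Het, 12.1 CPM (75 UMIs) in WT cuprizone and 6.60 CPM (24 UMIs) in WT control cells. It was 3.16-fold lower in KO than in WT cells on cuprizone (1.99 to 5.20), and the KO level was the lowest of the 4, although its ratio to WT control cells, 0.582 (0.319 to 1.06), had an interval that holds 1.

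**Figure D1:**
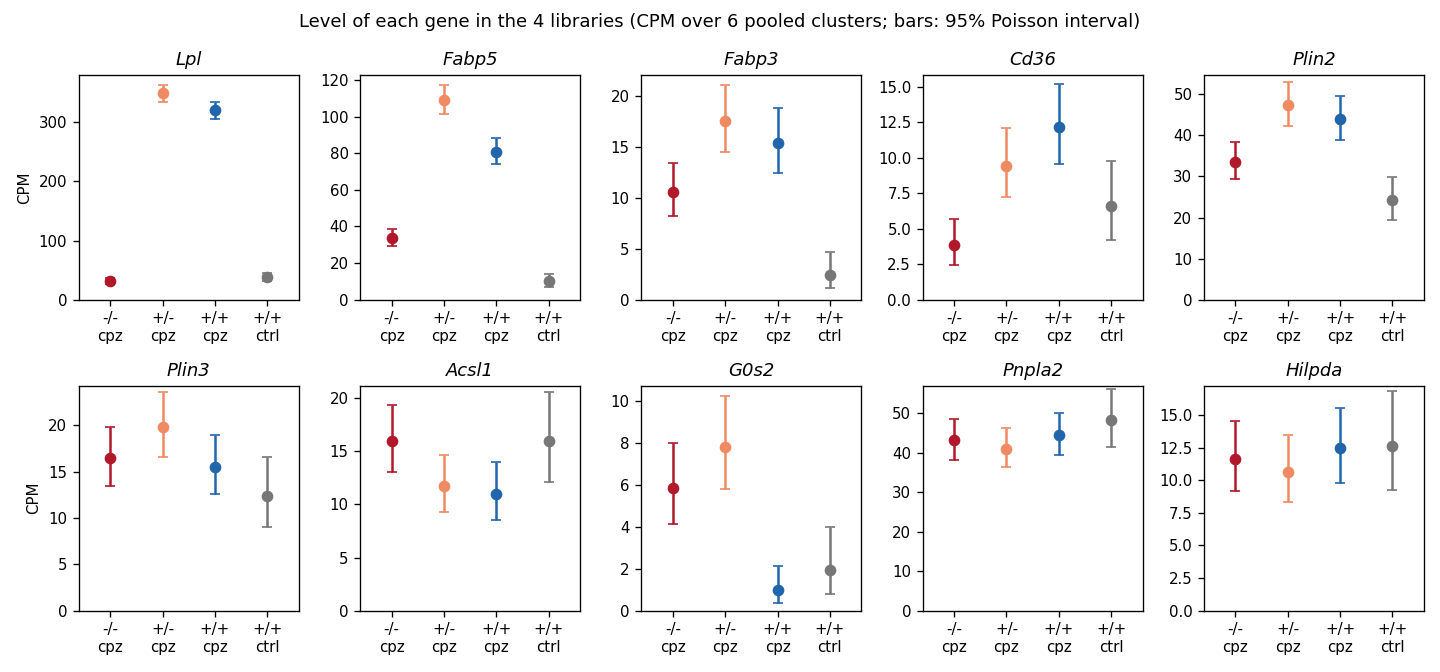
Level of each of the 10 genes in CPM (vertical axes, linear from 0) in the Trem2 -/-, Trem2 +/- and Trem2 +/+ libraries on cuprizone (cpz) and the Trem2 +/+ library on control diet (ctrl), summed over 6 clusters; bars are exact Poisson 95% intervals. Lpl was at 31.6 and 38.2 CPM in the Trem2 -/- cuprizone and Trem2 +/+ control libraries and above 300 CPM in the other two, whereas Pnpla2 stayed between 41.1 and 48.4 CPM in all 4.

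Of the 9 members with 50 UMIs in this comparison, 3 were lower in KO than in WT cells on cuprizone and 0 were higher, beside 3.86% called lower and 1.64% called higher of all 9189 genes tested. The median log2 ratio of the 9 was -0.39, against -0.00 for all genes tested. Lpl ranked 9180th of the 9189 genes when ordered from the highest ratio.

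The other members did not pass the rule. Fabp3 had 10.6 CPM in KO, 17.6 CPM in Het, 15.4 CPM in WT cuprizone and 2.47 CPM in WT control cells, with a ratio of 0.689 between KO and WT on cuprizone (0.498 to 0.949). A processed pseudogene, Fabp3-ps1, is listed separately with 10 KO, 11 Het, 13 WT cuprizone and 6 WT control UMIs, so reads of the gene may be split with it and its count is uncertain to that extent. Plin2 had 33.6 CPM in KO, 47.5 CPM in Het, 44.0 CPM in WT cuprizone and 24.2 CPM in WT control cells, and the ratio between KO and WT on cuprizone was 0.763 (0.636 to 0.915). For both genes the interval excluded 1 but the ratio did not reach 1.5-fold. Both directions turned when the clusters were given equal weight (log2 0.81 for Fabp3 and 0.82 for Plin2), which counts the 13 KO cells of cluster 04 as much as any other cluster.

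Acsl1 ran the other way, with 16.0 CPM in KO, 11.8 CPM in Het, 11.0 CPM in WT cuprizone and 15.9 CPM in WT control cells. Its ratio between KO and WT on cuprizone was 1.45 (1.06 to 2.0), just under the 1.5-fold limit. Plin3 had 16.4 CPM in KO, 19.8 CPM in Het, 15.5 CPM in WT cuprizone and 12.4 CPM in WT control cells. Pnpla2, the lipase, had 43.1 CPM in KO, 41.1 CPM in Het, 44.5 CPM in WT cuprizone and 48.4 CPM in WT control cells, and the lipase inhibitor gene Hilpda 11.7, 10.7, 12.5 and 12.6 CPM in the same libraries. Neighbouring levels of Plin3, Pnpla2 and Hilpda had overlapping Poisson intervals in the 4 libraries.

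G0s2, the other lipase inhibitor gene, had 5.83 CPM (38 UMIs) in KO, 7.78 CPM (51 UMIs) in Het, 0.972 CPM (6 UMIs) in WT cuprizone and 1.92 CPM (7 UMIs) in WT control cells. The ratio between KO and WT on cuprizone was 6.0 (2.52 to 17.4), but the 44 UMIs of both libraries fall under the minimum of 50. Those UMIs came from few cells, 14 in KO, 22 in Het, 6 in WT cuprizone and 6 in WT control. Summed levels of 10 neutrophil markers, such as S100a8 and S100a9, were also higher in the KO and Het libraries than in either WT library. They were 651 CPM in KO, 1783 CPM in Het, 50.4 CPM in WT cuprizone and 1.37 CPM in WT control cells. Between the WT libraries the markers were higher on cuprizone, whereas G0s2 was not. In the control library 7 of the 10 markers were at 0 (S100a8, S100a9, Ngp, Camp, Ltf, Retnlg and Mmp8). A neutrophil marker UMI was present in 10 of the 14 G0s2 cells of KO, 20 of 22 of Het, 6 of 6 of WT cuprizone and 0 of 6 of WT control. Cells without G0s2 also often held one, 50.6% of them in KO, 68.9% in Het, 35.6% in WT cuprizone and 1.06% in WT control. The G0s2 cells were deeper than the pool, with medians of 16300 UMIs in KO, 11558 in Het, 19725.5 in WT cuprizone and 8690.5 in WT control, so a link of the gene with these markers cannot be read from those counts. Without the 1% of pooled cells richest in those markers (3 KO, 23 Het, 0 WT cuprizone and 0 WT control cells) the log2 ratio of G0s2 between KO and WT on cuprizone was 0.81 in place of 2.59.

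Het cells on cuprizone lay near WT cells on cuprizone in most members. By the same rule 1 of 10 members was higher in Het than in WT cells on cuprizone and 0 were lower, beside 1.32% called higher and 1.17% called lower of 9248 genes. The called gene was G0s2, at a ratio of 8.01 (3.44 to 22.8). Its log2 ratio of 3.0 was 1.61 without the cells richest in neutrophil markers, and without its top cell the gene fell under 50 UMIs. Fabp5 was 1.35-fold higher in Het than in WT cells (1.20 to 1.51) and Lpl 1.09-fold (1.03 to 1.16), with intervals that exclude 1 but ratios under 1.5. The ratio of Cd36 was 0.779 (0.547 to 1.11) and that of Plin2 1.08 (0.913 to 1.27). The median log2 ratio of the 10 members was 0.12, against -0.01 for all genes tested.

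In WT cells 5 of the 9 members with 50 UMIs were higher on cuprizone than on control diet and 0 were lower, beside 2.59% called higher and 4.44% called lower of 8819 genes. Lpl was 8.38-fold higher (7.05 to 10.0), Fabp5 7.95-fold (5.69 to 11.4) and Fabp3 6.22-fold (3.14 to 14.0), the last on 95 cuprizone UMIs and 9 control UMIs. At a 2-fold limit these 3 alone were higher, beside 1.39% of all genes. They ranked 11th, 12th and 18th of the 8819 ratios. With equal cluster weights their log2 ratios fell to 0.65 for Lpl, 0.47 for Fabp5 and 0.69 for Fabp3, in place of 3.07, 2.99 and 2.64. Fabp5 was then under the 1.5-fold limit. Those weights count cluster 04, with 122 WT cuprizone and 6 WT control cells, as much as any other cluster. Cd36 was 1.84-fold higher (1.15 to 3.05), but its direction turned with equal cluster weights (log2 -0.28), and in cluster 02 the ratio was 0.934 (0.488 to 1.85). With equal weights the WT control level of Cd36 rested in part on 2 UMIs in 6 cells of cluster 04 and 1 UMI in 13 cells of cluster 08. The droplet coat gene Plin2 was 1.82-fold higher (1.43 to 2.34). The other coat gene, Plin3, had a ratio of 1.26 (0.873 to 1.83), Acsl1 0.691 (0.479 to 0.998), Pnpla2 0.921 (0.759 to 1.12) and Hilpda 0.986 (0.676 to 1.45). G0s2, with 13 UMIs in both libraries, was not tested. The median log2 ratio of the 9 was 0.86 and that of all genes tested -0.11, a shift that TMM scaling moved to 0.01 without changing a call of a member. The sign of the Hilpda ratio turned with that scaling.

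**Figure D2:**
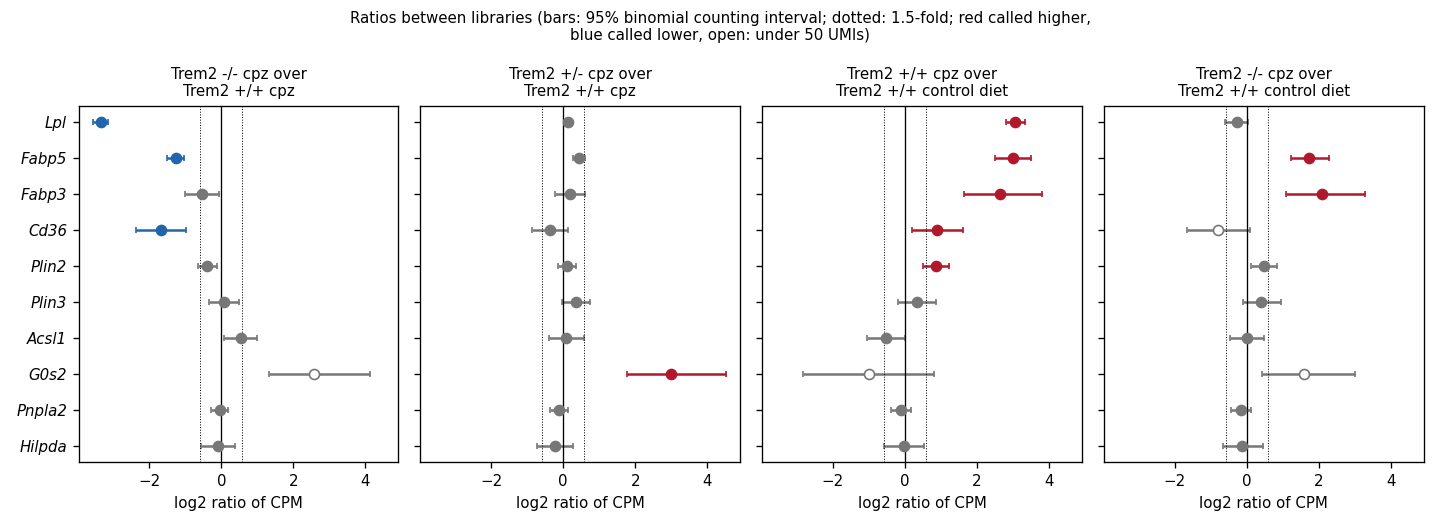
Log2 ratio of CPM (horizontal axes) of each gene in 4 comparisons, first-named library over the second as titled, with exact binomial 95% intervals; dotted lines mark 1.5-fold, red and blue mark genes called higher and lower, and open circles genes under 50 UMIs. Lpl, Fabp5 and Cd36 lay left of the line for Trem2 -/- over Trem2 +/+ on cuprizone. Lpl, Fabp5, Fabp3, Cd36 and Plin2 lay right of it for cuprizone over control diet in Trem2 +/+ cells. Equal cluster weights count clusters of few cells as much as large ones. Of the genes whose interval excluded 1, the sign then turned for Fabp5, Fabp3 and Plin2 in the first of these comparisons and for Cd36 in the other.

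A further comparison, added after the data had been seen, set KO cells on cuprizone against WT cells on control diet, so genotype and diet differ at once. Of 8 members with 50 UMIs, 2 were higher in KO cuprizone cells and 0 were lower, beside 1.61% called higher and 5.31% called lower of 8826 genes. The carriers were the 2 called, Fabp5 as given above and Fabp3 at 4.28-fold (2.13 to 9.76). Lpl had a ratio of 0.828 (0.664 to 1.03), and Plin2 one of 1.39 (1.08 to 1.80). In the KO library Lpl was thus not above the control-diet level, whereas both carriers were.

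Levels within the authors' clusters describe where these genes lay. Of the 10, 5 (Lpl, Fabp5, Fabp3, Cd36 and Pnpla2) were among the 4895 genes used in the authors' clustering, and Lpl and Fabp5 are among the 10 genes that lead cluster 04, together with Spp1, Mmp12 and Gpnmb, so their height there is a description. Over all 4 libraries, the 291 cells of cluster 04 had 892 CPM of Lpl, 272 CPM of Fabp5, 43.2 CPM of Fabp3 and 95 CPM of Plin2. In the other 5 pooled clusters Lpl lay between 2.1 and 197 CPM in any library, Fabp5 between 0 and 72.5 CPM and Plin2 between 10.2 and 44.9 CPM. Pnpla2 had no such peak, with 29.3 to 42.7 CPM in cluster 04 and 11.8 to 67.6 CPM elsewhere.

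Cluster 04 held 24.3% of the Lpl UMIs of the KO pool in 13 cells, 70.1% of those of the Het pool in 150 cells and 67.1% of those of the WT cuprizone pool in 122 cells. In the WT control library its 6 cells held 37.4% of the Lpl UMIs. A cluster drawn in part on Lpl cannot be used to compare its own size between libraries, so the numbers of cells are given as denominators. The 50% of Lpl UMIs that came from the cells with most of them lay in 14 of 753 KO, 42 of 695 Het, 33 of 663 WT cuprizone and 7 of 479 WT control cells.

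**Figure D3:**
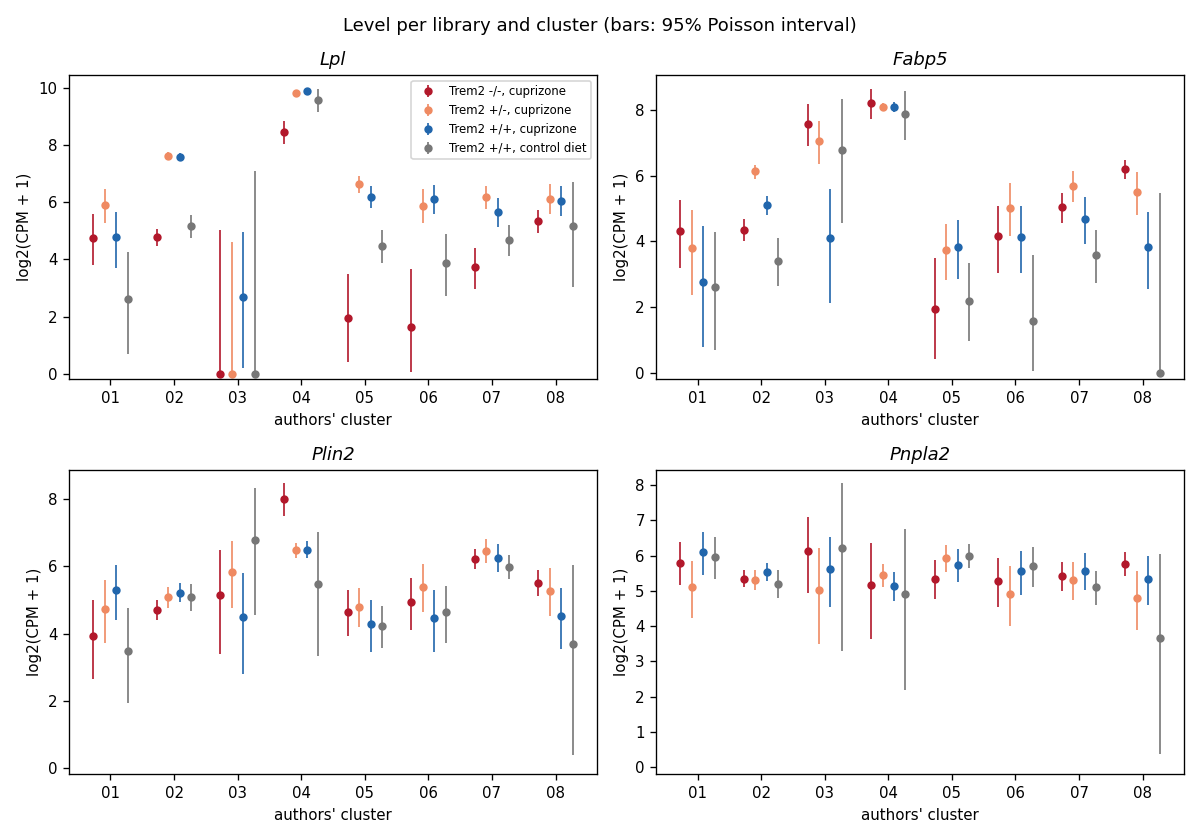
Level of Lpl, Fabp5, Plin2 and Pnpla2 as log2(CPM + 1) (vertical axes) in each of the authors' 8 clusters (horizontal axes) and each library, with exact Poisson 95% intervals. Lpl and Fabp5 peaked in cluster 04, where the Trem2 -/- library lay below the other three for Lpl. For Fabp5 it lay level with them there, with 24 of its 42 UMIs in 1 cell. Pnpla2 was flat over the clusters.

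Within clusters the genes did not move alike between the KO and WT libraries on cuprizone. Of 60 ratios (10 genes in 6 clusters) 19 rested on at least 50 UMIs, and 5 of these were called lower and 3 higher. The clustering had used Lpl and Fabp5, among other members, so their ratios within a cluster are not independent of how cells were assigned to it. Lpl was called lower in each of the 4 clusters where it had 50 UMIs. In cluster 02, the deepest cells, it had 26.3 CPM in KO and 192 CPM in WT cells, 7.29-fold lower (5.83 to 9.20), where 3.18% of 7766 genes were called lower. In cluster 04 it had 350 CPM in 13 KO cells and 943 CPM in 122 WT cells, 2.69-fold lower (2.03 to 3.65), where 4.14% of 3409 genes were called lower. In cluster 05 it had 2 UMIs in 96 KO cells (2.84 CPM) and 55 UMIs in 103 WT cells (72.0 CPM), where 2.96% of 3750 genes were called lower. One WT cell held 21 of those 55 UMIs, and leaving out the top cells brought the total under 50. In cluster 08 it had 39.4 CPM in KO and 65.9 CPM in WT cells, 1.67-fold lower (1.03 to 2.68), where 4.32% of 3634 genes were called lower, and without the top cells the ratio of 0.651 (0.387 to 1.12) was not called.

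Fabp5 differed between clusters. It had 19.4 CPM in KO and 33.3 CPM in WT cells of cluster 02, 1.72-fold lower (1.24 to 2.39). In cluster 04 the levels were 294 CPM in KO and 272 CPM in WT cells, a ratio of 1.08 (0.769 to 1.49). There 1 KO cell held 24 of the 42 KO UMIs and 1 WT cell 50 of the 382 WT UMIs. In cluster 08, which is led by the interferon-induced genes Ifit1 and Ifit3 and by Ccl5, Fabp5 had 72.5 CPM (92 UMIs in 175 cells) in KO and 13.2 CPM (6 UMIs in 76 cells) in WT cells. That is 5.50-fold higher (2.43 to 15.4), and 7.43-fold with both top cells left out (2.80 to 27.9), where 3.08% of 3634 genes were called higher. The Het library also stood above WT there, with 44.5 CPM (20 UMIs in 77 cells) and a ratio of 3.38 (1.31 to 10.3), on fewer than 50 UMIs. Cluster 08 held 41.8% of all Fabp5 UMIs of the KO pool and 1.20% of those of the WT cuprizone pool.

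Plin2, which the clustering did not use, was also higher in KO than in WT cells of 2 clusters. In cluster 04 it had 259 CPM in KO and 89.6 CPM in WT cells, 2.90-fold higher (1.95 to 4.21), where 5.63% of genes were called higher. One KO cell held 15 of the 37 KO UMIs there, and without the top cells the ratio was 1.99 (1.20 to 3.16). In cluster 08 it had 44.9 CPM in KO and 22.0 CPM in WT cells, 2.05-fold higher (1.04 to 4.49). In cluster 02 the ratio of 0.693 (0.514 to 0.933) was below 1 and not called. Pnpla2 was called in none of the 4 clusters where it had 50 UMIs.

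Cd36, lower in the KO pool, reached 50 UMIs in none of the 6 clusters, so no cluster gave a call. Its ratio between KO and WT on cuprizone was 0.585 (0.316 to 1.07) in cluster 02, from 21 KO and 28 WT UMIs, and 0.672 (0.134 to 2.1) in cluster 04, from 3 KO and 44 WT UMIs, and both intervals hold 1. Cluster 04 held 12% of the Cd36 UMIs of the KO pool and 58.7% of those of the WT cuprizone pool.

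When the 6 clusters were given equal weight in each library, Lpl had a log2 ratio of -1.61 between KO and WT on cuprizone, in place of -3.34, and Fabp5 one of 0.26, in place of -1.26. The direction of Lpl was thus the same under both weightings and that of Fabp5 was not. With equal weights the median of the 9 members was 0.17, in place of -0.39. Equal weights count the 13 KO cells of cluster 04, with 2.19% of the UMIs of the KO pool, as much as any other cluster. The top cell for each gene among them held 24 of 42 Fabp5 UMIs, 15 of 37 Plin2 UMIs and 5 of 10 Fabp3 UMIs.

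**Figure D4:**
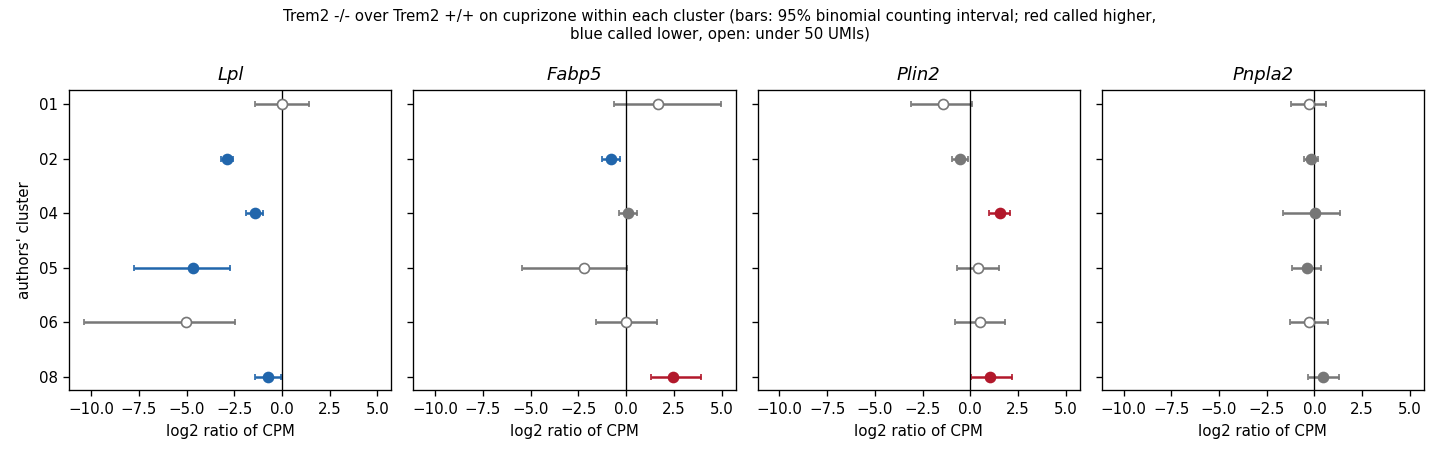
Log2 ratio of CPM (horizontal axes) of Trem2 -/- over Trem2 +/+ on cuprizone within each of the 6 pooled clusters (rows), with exact binomial 95% intervals; red and blue mark genes called higher and lower, open circles those under 50 UMIs. Lpl lay at or left of the line in each cluster, Fabp5 left of it in cluster 02 and right of it in cluster 08, Plin2 right of it in clusters 04 and 08, and Pnpla2 near it throughout.

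Between Het and WT cells on cuprizone, 20 of the 60 within-cluster ratios had 50 UMIs, with 1 called higher and 1 lower. Fabp5 had 69.0 CPM in Het and 33.3 CPM in WT cells of cluster 02, 2.07-fold higher (1.60 to 2.69), where 1.52% of 7440 genes were called higher. Cd36 had 12.9 CPM in Het and 31.3 CPM in WT cells of cluster 04, 2.42-fold lower (1.43 to 4.20), where 2.43% of 5387 genes were called lower. For cuprizone against control diet in WT cells 3 of 13 such ratios were called higher and 0 lower. Lpl was 5.47-fold higher in cluster 02 (4.10 to 7.45) and Fabp5 3.47-fold (1.97 to 6.60), where 1.53% of 6801 genes were called higher. Lpl was also 3.39-fold higher in cluster 05 (2.06 to 5.73), where 1.63% of 4479 genes were.

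Between KO cells on cuprizone and WT cells on control diet 14 ratios had 50 UMIs, with 2 called higher and 2 lower. Fabp5 was 2.02-fold higher in cluster 02 (1.13 to 3.89), where 1.48% of 7218 genes were called higher. In cluster 08 Fabp5 had 0 UMIs in 13 WT control cells. With a floor of 3 UMIs in their place its ratio was 2.05, and the interval from the counts began at 1.64 and had no upper limit. There 2.51% of 3033 genes were called higher. Lpl was 2.18-fold lower in cluster 04 (1.45 to 3.27), from 13 KO and 6 control cells, where 9.61% of 562 genes were called lower. Pnpla2 was 1.58-fold lower in cluster 05 (1.01 to 2.55), where 3.06% of 4386 genes were.

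Cd36 was low in the pool but had its highest cluster level, 48.9 CPM, in cluster 07, which was left out of the sums. Markers of macrophages at the borders of the brain moved with Cd36 in the pool: 5 of the 10 were called lower in KO than in WT cells on cuprizone and 0 higher (3.86% and 1.64% of all genes tested), with summed levels of 214 CPM in KO, 336 CPM in Het, 322 CPM in WT cuprizone and 258 CPM in WT control cells, and none was at 0 in any library. The 5 endothelial markers summed to 17.5 CPM in KO, 31.7 CPM in Het, 34.7 CPM in WT cuprizone and 22.0 CPM in WT control cells. Their part in the Cd36 values was not tested.

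The share of cells with a UMI was also compared. To remove differences in depth, each cell was thinned to 2915 UMIs, which left out 80 KO, 51 Het, 59 WT cuprizone and 69 WT control cells. Lpl was then found in 5.05% of KO cells (3.52 to 6.99), 28.9% of Het cells (25.4 to 32.6), 26.7% of WT cuprizone cells (23.2 to 30.4) and 4.63% of WT control cells (2.81 to 7.14). Unthinned, the shares were 11.6%, 44.9%, 36.2% and 11.3% in the same libraries. In cluster 03, whose leading genes are not those of microglia, Lpl had a UMI in 1 of 66 cells at a median of 4959.5 UMIs per cell. After thinning it had none in 50 cells, which leaves a low share of cells with a UMI at that depth possible and does not limit the share that express the gene.

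Fabp5 was found after thinning in 5.35% of KO cells (3.77 to 7.33), 17.2% of Het cells (14.4 to 20.4), 9.60% of WT cuprizone cells (7.37 to 12.2) and 2.68% of WT control cells (1.35 to 4.75). Here the Het share stood above the WT cuprizone share, and the intervals did not overlap. Plin2 was found in 9.96% of KO, 11.2% of Het, 9.93% of WT cuprizone and 6.83% of WT control cells, with overlapping intervals, and its shares did not follow the lower KO level. Pnpla2 was found in 10.4% of KO, 11.0% of Het, 13.1% of WT cuprizone and 15.1% of WT control cells, also with intervals that overlapped between neighbours in that order. The other 6 members were each in at most 6.21% of the cells of a library.

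Cells with several members at once were rare. At least 3 of the 10 genes had a UMI in 1.63% of thinned KO cells (11 of 673), 7.45% of Het cells (48 of 644), 5.30% of WT cuprizone cells (32 of 604) and 0.488% of WT control cells (2 of 410). None of the 10 had one in 62.0% of KO, 44.4% of Het, 47.8% of WT cuprizone and 63.4% of WT control cells.

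**Figure D5:**
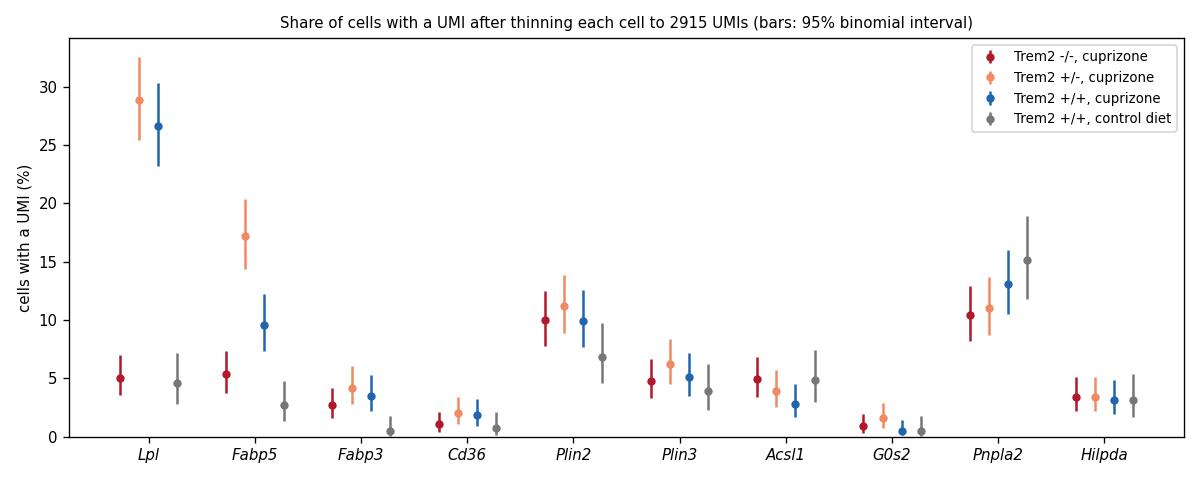
Share of thinned cells with a UMI of each gene (vertical axis, percent) in the 4 libraries, with exact binomial 95% intervals. Lpl was found in 28.9% and 26.7% of Trem2 +/- and Trem2 +/+ cells on cuprizone and in 5.05% and 4.63% of cells of the Trem2 -/- cuprizone and Trem2 +/+ control libraries. Plin3, Acsl1 and Hilpda were found in a small share of cells in all 4.

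Co-expression across single cells was weak. Pearson correlations were taken on log2(UMIs + 1) of thinned cells. The highest of the 45 pairwise values was between Fabp5 and Fabp3 in KO cells (r = 0.21, n = 673). It was between Lpl and Fabp5 in Het cells (r = 0.28, n = 644) and in WT cuprizone cells (r = 0.29, n = 604). In KO cells Fabp5 had a UMI in 5.88% of cells with Lpl and 5.32% of cells without it, from 34 Lpl cells and 2 with both genes. In Het cells those shares were 32.8% and 10.9%, and in WT cuprizone cells 21.7% and 5.19%. Outside cluster 04 the correlation of Lpl and Fabp5 was -0.04 in KO cells, 0.11 in Het cells and 0.14 in WT cuprizone cells. That of Fabp5 and Fabp3, which in all KO cells rested on 4 cells with both genes, was there 0.04 in KO, 0.20 in Het and 0.28 in WT cuprizone cells. These values rested on 2 KO, 3 Het and 2 WT cuprizone cells with both. In the control library the top pair was Lpl and G0s2 (r = 0.47, n = 410), which rested on 2 cells with both. Cells of a library share its depth and its free RNA, and at these counts such values are descriptions.

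Over the 24 combinations of library and pooled cluster, the log2(CPM + 10) of Fabp5 and Fabp3 had r = 0.93, that of Lpl and Fabp5 0.86 and that of Fabp5 and Plin2 0.83. Among 7307 genes with at least 200 UMIs, those most like Lpl were Rab7b, a small GTPase gene of late endosomes and lysosomes (r = 0.93), Spp1, which encodes osteopontin (0.93), the actin-capping gene Capg (0.90), the secretory kinase gene Fam20c (0.89) and Cybb, a subunit gene of the phagocyte NADPH oxidase (0.89). Most like Fabp5 were the galectin gene Lgals3 (0.94), Rab7b (0.94), Fabp3 (0.93), the growth factor gene Igf1 (0.93) and the cytokine gene Mif (0.92). Pnpla2, the member with the third-highest total of UMIs, had lower values with its most similar genes, Rnf40, Cmas, Tmem175, Cysltr1 and Bcl7a (0.80 to 0.77). The points share libraries and cell clusters, and cluster 04 stands high for many of these genes.

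The other genes of these pathways were described by 7 lists. Over all genes tested, 3.86% were called lower and 1.64% higher between KO and WT on cuprizone, 1.17% lower and 1.32% higher between Het and WT on cuprizone, 4.44% lower and 2.59% higher between WT on cuprizone and control diet, and 5.31% lower and 1.61% higher between KO on cuprizone and WT on control diet. The lists below held 0 to 2 calls in a comparison, and with so few nothing is read from a count about its list. The list ratios are of CPM without TMM scaling. In both comparisons with control diet the median log2 ratio of all genes was -0.11, so list calls near 1.5-fold there may depend on the scaling. On uptake and lipoprotein lipase partners, 0 of 8 genes with 50 UMIs were called in any of the 4 comparisons. Its most abundant gene, Scp2, a sterol and lipid carrier, had 171 CPM in KO, 156 CPM in Het, 149 CPM in WT cuprizone and 143 CPM in WT control cells. Likewise 0 of 8 genes of acyl-CoA synthesis and hydrolysis were called, and the thioesterase gene Acot13 had 96.2 CPM in KO, 82.3 CPM in Het, 84.4 CPM in WT cuprizone and 86.8 CPM in WT control cells.

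Of 9 genes of triacylglycerol and sterol ester synthesis, 1 was lower in KO than in WT cells on cuprizone. This was Gpat4, an acyltransferase of the first step of glycerolipid synthesis, at 18.3 CPM in KO and 28.5 CPM in WT cells, 1.56-fold lower (1.23 to 1.99). Dgat1, which makes triacylglycerol, was 1.59-fold lower in KO cuprizone than in WT control cells (1.16 to 2.18). Of 10 genes of droplet coats and assembly 1 was lower in KO than in WT cells on cuprizone, Pcyt1a, an enzyme of phosphatidylcholine synthesis, 1.51-fold (1.03 to 2.22). Among 7 lipolysis genes, Lipe, which encodes hormone-sensitive lipase, was lower on cuprizone than on control diet in WT cells, 1.54-fold (1.19 to 1.97), and 0 differed between KO and WT on cuprizone.

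Of 22 genes of fatty acid oxidation 0 were called between KO and WT cells on cuprizone, with a median log2 ratio of 0.08. Cpt2, a carnitine palmitoyltransferase of the inner mitochondrial membrane, was 1.57-fold lower on cuprizone than on control diet in WT cells (1.10 to 2.25). Cpt1a, its counterpart of the outer membrane, was 2.17-fold higher (1.26 to 3.94) and the thiolase gene Acaa2 1.70-fold higher (1.24 to 2.34) in KO cuprizone than in WT control cells. Among the regulators, the coactivator gene Ppargc1b had 2.15 CPM in KO, 2.44 CPM in Het, 5.83 CPM in WT cuprizone and 3.02 CPM in WT control cells. It was 2.71-fold lower in KO (1.43 to 5.44) and 2.39-fold lower in Het (1.29 to 4.61) than in WT cells on cuprizone, the 1 call of 10 tested regulators in each comparison. Pparg, the nuclear receptor of fat cells, had 2 UMIs in the whole pool and was not tested, whereas Ppard, which encodes another PPAR, had 23.3 CPM in KO, 20.8 CPM in Het, 24.6 CPM in WT cuprizone and 22.8 CPM in WT control cells.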

How the data were processed

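The deposited values are raw UMI counts, given as integers for each cell. The submitters' processing notes name Cell Ranger 2.1.1 and build mm10 as what the authors used. The authors' files give each cell's library and cluster and mark the genes used in clustering. The gene annotation and any removal of doublets by the authors were not given in the sources used here, and no doublet caller was run. Libraries were grouped by their labels. UMIs were summed over 6 clusters, and scaled to 1000000 UMIs of the summed cells (CPM) in Python 3.11.15 with scipy 1.17.1. TMM factors came from edgeR 4.0.16, with no edgeR test. Thinning used a fixed seed. The 10 members, the gene lists, the clusters pooled and the rules were chosen with earlier results of these data known. The named genes are the members, the list genes called or most abundant, and the 5 genes most like Lpl, Fabp5 and Pnpla2. Of the list genes that were called, all are named. Ratio intervals were run on simulated Poisson counts, the counting error that they assume. UMIs gathered in few cells were not simulated. Alternatives changed scaling, cells, weighting, UMI minimum and fold limit.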

Additional observations from a re-analysis of the deposited data

Results flagged for a closer look

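The clusters left out of the sums held several members above the WT control pool, and these are values of data outside the comparisons. Over the 66 cells of cluster 03 in all 4 libraries, G0s2 had 254 CPM (against 1.92 CPM in the WT control pool), Fabp5 100.5 CPM (against 10.2 CPM), Plin3 102.6 CPM (against 12.4 CPM) and Fabp3 92.3 CPM (against 2.47 CPM). Of the 45 Fabp3 UMIs of cluster 03, 43 came from 5 cells of the WT cuprizone library, and 1 cell held 14. In the 367 cells of cluster 07, Cd36 had 48.9 CPM (against 6.60 CPM), Plin2 73.8 CPM (against 24.2 CPM) and Fabp5 28.4 CPM (against 10.2 CPM). These clusters hold other mixes of cells, and their part in the values was not tested.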

How the results depend on the processing

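Over 10 alternatives, 85 of 100 gene ratios between KO and WT on cuprizone moved by less than their counting interval, and 93 of 100 in each of the other comparisons. The direction of a called gene turned in 2 cases, both with clusters weighted equally: Fabp5 between KO and WT on cuprizone (log2 0.26) and Cd36 between WT on cuprizone and control diet (-0.28). Equal weights count clusters of few cells as much as large ones. In the 13 KO cells of cluster 04, 1 cell held 24 of 42 Fabp5 UMIs. In WT control, Cd36 had 2 UMIs in the 6 cells of cluster 04 and 1 UMI in the 13 cells of cluster 08. Counts of called members moved by over 1.5 times as follows. Between KO and WT on cuprizone 2 members were higher with equal cluster weights (Fabp3 and Plin2), and 1 with a minimum of 20 UMIs or none (G0s2). Between Het and WT on cuprizone 2 were higher and 1 lower by the mean of per-cell CPM, and 0 higher without each gene's top cell or without the cells richest in neutrophil markers. Between WT on cuprizone and control diet 3 were higher with equal weights, with thinned cells or at 2-fold. Between KO on cuprizone and WT on control diet 4 were higher and 1 lower over all deposited cells and also with equal weights, and 1 was higher with thinned cells. The cause of these shifts was not tested. No paired analysis was possible because each group has 1 library and the labels give no replicate numbers. Depth limits Cd36, Fabp3, Acsl1, G0s2 and Hilpda, which had at most 115 UMIs in a library.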
